A study of Macaca mulatta with 60 samples.

Results

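Adam12 is the gene of a disintegrin and metalloproteinase, and on these arrays it was measured by 1 transcript, ENSMMUT00000013487, of 26149 on the array. The transcript was followed over all 60 arrays as 1 named row, and its symbol came from the study's own tables, which pair it with gene ENSMMUG00000009661, listed as ADAM12 in the gene table used here. The arrays cover both ventricles (LV on the left, RV on the right), both atria (LA and RA) and the biceps femoris muscle (BFM), a skeletal muscle, of 12 female rhesus monkey fetuses. The fetuses fall into 4 groups of 3, and the same fetus number was taken to mark the same animal in every tissue. In early gestation (EG) the dams received deuterated bisphenol A (BPA), a building block of plastics with weak estrogen-like activity, at 400 µg/kg body weight daily in fruit from day 50 to day 100, and in late gestation (LG) from day 100 to term. Control dams received the ethanol vehicle alone. EG fetuses were taken by caesarian section and LG fetuses after vaginal delivery, so age and mode of delivery cannot be told apart in any comparison of LG with EG.

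ADAM12 belongs to the membrane-anchored proteases that combine a metalloproteinase domain with a disintegrin domain. It exists as a long form in the membrane and a short secreted form, it cleaves growth factor precursors such as heparin-binding EGF-like growth factor and insulin-like growth factor binding proteins, and it binds integrins and syndecans. It is known from skeletal muscle, where it is expressed in forming and regenerating fibres and little in mature ones, and in the heart from studies of hypertrophy. The probes report the transcript's level on the RMA log2 scale, on which a difference of 1 is a 2-fold change. The study's list of assays gives this transcript under the long form, and whether the array's probes also read the short form was not tested. Because whole tissue was extracted, fewer cells of a type and less RNA per cell cannot be told apart. The 5 tissues were normalized separately and atrial cDNA was amplified while ventricular cDNA was not, so a level is set only against levels of its own tissue, and differences alone are compared across tissues.

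In controls Adam12 was lower in LG than in EG in each of the 5 tissues. The groups of 3 did not overlap in any of them. Here and below, the share of all transcripts whose groups do not overlap was not counted, so non-overlap is a description. The log2 difference of Adam12 was largest in BFM and smallest in LA. In LV the EG control fetuses 1, 2 and 3 had levels of 7.22, 7.52 and 7.68, and the LG control fetuses 7, 8 and 9 had 5.94, 5.68 and 5.18. The means were 7.47 ± 0.23 and 5.60 ± 0.39 (SD, n = 3), a log2 difference of -1.88 (SE 0.36, 3.67-fold lower). In RV the EG controls were at 7.33, 7.76 and 7.08 and the LG controls at 6.02, 5.06 and 5.47. Every RV control of LG therefore lay more than 1 below every RV control of EG, and the log2 difference was -1.87 (SE 0.36). In LA the EG controls were at 7.92, 7.91 and 9.28 and the LG controls at 7.47, 7.74 and 7.15, so the lowest EG and the highest LG value were close and fetus 3 stood well above the other EG controls. The LA difference was -0.91 (SE 0.38), and it was -0.46 without fetus 3. In RA the EG controls were at 8.67, 8.19 and 8.48 and the LG controls at 6.97, 7.59 and 7.38, which gave a difference of -1.13 (SE 0.32). In BFM the EG controls were at 9.60, 9.87 and 9.68 and the LG controls at 6.35, 7.46 and 7.80. The BFM means of 9.71 ± 0.14 and 7.20 ± 0.76 differed by -2.51 (SE 0.34, 5.70-fold lower), and fetus 7 was the lowest of them by more than 1.

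In the study a transcript was altered where its log2 fold change reached 1 in either direction with an unadjusted p no higher than 0.01. By limma on the 12 arrays of a tissue, Adam12 met this in LG against EG controls in LV, RV, RA and BFM and not in LA. The RA call was lost without fetus 1 (-1.02) or fetus 7 (-0.96) and with only the arrays of the contrast. Lower levels in LG met the same criteria for 1.49% of the transcripts tested in LV and 3.53% in RV, 4.34% in LA and 3.45% in RA, and 13.9% in BFM. Adjusted by the Benjamini-Hochberg method over all transcripts tested, limma's p was 0.0178 in RV and 2.13e-04 in BFM, and 0.196 in LV, 0.253 in LA and 0.0994 in RA. Over the alternative fits this adjusted p ran from 0.0099 to 0.160 in RV, from 8.06e-05 to 0.00288 in BFM and from 0.0472 to 0.276 in RA. An adjusted p of at most 0.05 with a lower level in LG, whatever the fold, was reached by 0% of tested transcripts in LV and 1.3% in RV, 1.66% in LA and 1.37% in RA, and 26.2% in BFM. In LV none of the 17628 transcripts tested reached it. In BFM, where many transcripts met the criteria, Adam12 ranked 179 from the lowest log2 difference among 8609. With 3 fetuses against 3, the exact two-sided permutation test cannot go below p = 0.1, and it gave 0.1 in every tissue. The LG controls of LV and RV are also the low arm of the BPA comparison from which the study singled out Adam12. The calls and p-values of the fall in LV and RV are therefore not independent of that choice. LA, RA and BFM carry the same fetus numbers, and the study screened LA and RA as well. The comparison was also chosen with earlier results of these data known, so the p-values of LA, RA and BFM are no independent check either.

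**Figure D1:**
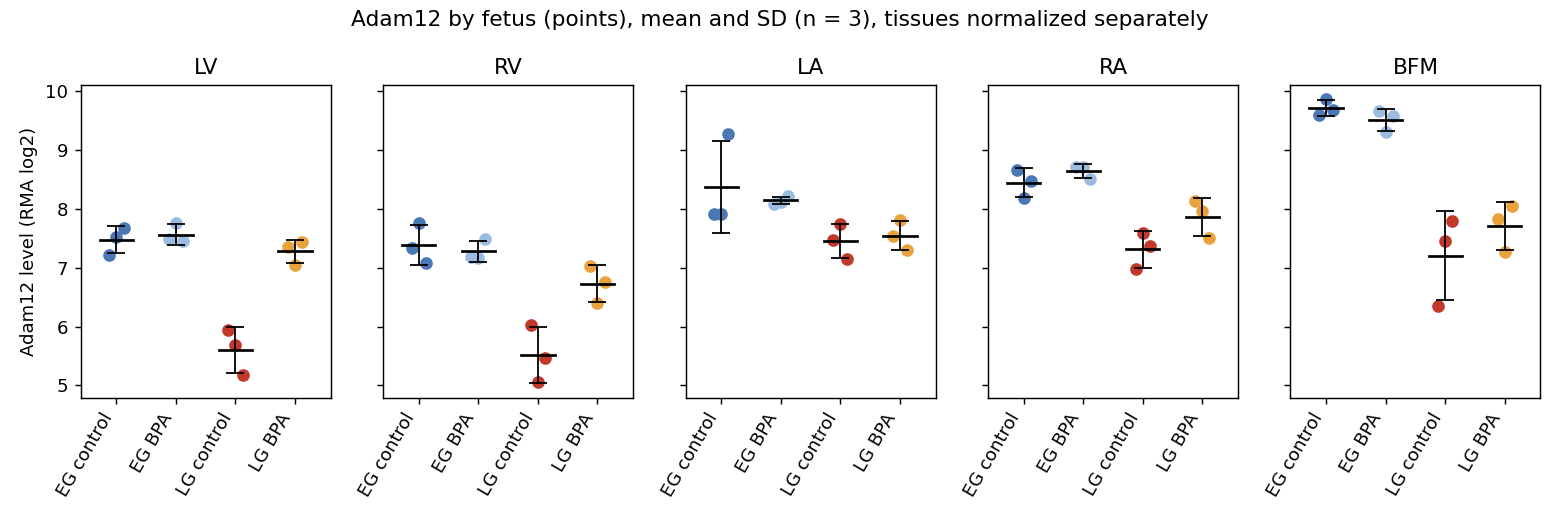
Adam12 level on the RMA log2 scale by group in each tissue, with 1 point per fetus, the mean as a line and the SD as bars (n = 3). The LG controls lie below the EG controls in all 5 tissues, and the LG BPA fetuses lie above the LG controls without overlap in LV and RV.

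Adding the BPA fetuses gave 6 LG against 6 EG arrays per tissue. The groups of 6 did not overlap in RV, LA, RA and BFM, and in LV they did. How many other transcripts separate in the same way, or reach the same exact p, was not counted. The mean difference was -1.08 (SE 0.40) in LV and -1.21 (SE 0.33) in RV, -0.75 (SE 0.23) in LA and -0.95 (SE 0.19) in RA, and -2.16 (SE 0.26) in BFM. The exact two-sided permutation test gave p = 0.013 in LV and p = 0.0022 in each other tissue, which is the smallest it can give. Benjamini-Hochberg adjustment over the 6 such tests, the mean of the chambers included, gave 0.013 and 0.0026. The overlap in LV came from the LG BPA fetuses 10 and 12 at 7.35 and 7.43, which lay above the EG control fetus 1 at 7.22.

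In LG the BPA exposed fetuses had more Adam12 than their controls in LV and RV, and in LA, RA and BFM the ranges overlapped. Adam12 was singled out in the study from this comparison in LV and RV on these arrays, so the values there are a description and support nothing on their own. The study also measured the long form by quantitative PCR in a larger set of LG fetuses. It reported a significant rise with BPA in RV and RA, and in LV a rise of similar size to RV that was not significant. In LV the LG BPA fetuses 10, 11 and 12 were at 7.35, 7.05 and 7.43 (mean 7.28 ± 0.20, SD, n = 3), each of them more than 1 above the highest LG control. The log2 difference was 1.68 (95% confidence interval 0.90 to 2.46, 3.20-fold). In RV they were at 7.03, 6.40 and 6.76 (6.73 ± 0.32), and the lowest was 0.38 above the highest LG control. The RV difference was 1.21 (0.44 to 1.99, 2.32-fold). In RA the LG BPA fetuses were at 8.14, 7.96 and 7.51, of which only fetus 12 lay inside the range of the LG controls. The RA difference was 0.55 (-0.14 to 1.25). In LA they were at 7.53, 7.81 and 7.30 and overlapped the controls, with a difference of 0.09 (-0.73 to 0.91). In BFM they were at 7.82, 7.26 and 8.06, and the difference was 0.51 (-0.23 to 1.25). Without fetus 7, the low BFM control, it was 0.09.

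By the study's criteria the LG difference was called in LV and RV, and higher levels in LG BPA were called for 0.437% of tested transcripts in LV and 0.258% in RV, 0.62% in LA and 0.236% in RA, and 0.499% in BFM. The adjusted p from limma was 0.851 in LV and 1.00 in RV, and between 0.961 and 0.993 in LA, RA and BFM. The RV call was lost without fetus 8 (0.98), fetus 9 (1.19) or fetus 10 (1.06), and it was also lost when only the 6 arrays of the contrast were fitted. By size of the log2 difference Adam12 ranked 501 from the top of 17628 tested transcripts in LV and 89 of 12031 in RV.

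**Figure D2:**
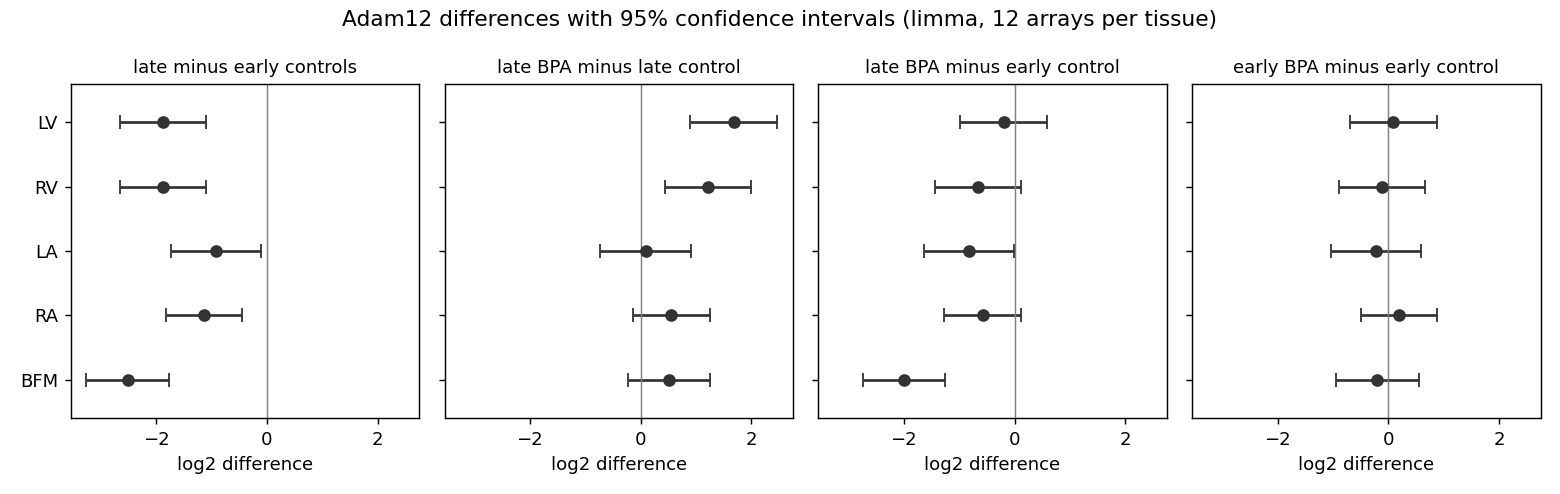
Log2 differences of Adam12 per tissue with 95% confidence intervals from limma, for LG against EG controls, LG BPA against LG controls, LG BPA against EG controls and EG BPA against EG controls. The LG BPA difference from LG controls excludes 0 in LV (1.68) and RV (1.21), and the difference from EG controls is near 0 in LV (-0.20) and at -2.0 in BFM.

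The second question was whether LG BPA fetuses kept an early level, which was read from the same LG BPA arrays against the EG controls. This comparison shares its arrays with those above, so the 3 sets of differences are not independent. In LV the LG BPA fetuses were at 7.05 to 7.43 and the EG controls at 7.22 to 7.68, which overlap. The LV difference was -0.20 (95% interval -0.98 to 0.58). In RV all 3 LG BPA fetuses lay below all 3 EG controls, the highest at 7.03 against the lowest at 7.08, with a difference of -0.66 (-1.43 to 0.11). In LA the difference was -0.82 (-1.64 to -0.0040), and -0.37 without the high EG control fetus 3. In RA it was -0.58 (-1.27 to 0.11), and in both atria the groups did not overlap. In BFM the LG BPA fetuses lay more than 1 below all EG controls, with a difference of -2.0 (-2.74 to -1.26, 4.00-fold lower, limma adjusted p = 9.69e-04). Only BFM met the study's criteria, which lower levels met for 1.6% of tested transcripts in LV and 3.91% in RV, 3.83% in LA and 2.88% in RA, and 12.9% in BFM. A p that misses the threshold in LV, RV, LA and RA does not show that the early level was kept.

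Expressed as the position of the LG BPA mean on the way from the LG to the EG control mean, Adam12 stood at 89.5% in LV and 64.7% in RV, 10.0% in LA and 48.9% in RA, and 20.3% in BFM. Leaving out 1 fetus at a time gave 83.8% to 95.5% in LV and 56.7% to 73.6% in RV, -7.86% to 23.5% in LA and 37.0% to 64.7% in RA, and 4.12% to 29.4% in BFM. LV had the highest position in each case, while the ranges of RV and RA overlapped. These positions are a description with no test.

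Against EG BPA in place of EG controls, the LG BPA fetuses differed by -0.29 in LV and -0.55 in RV, -0.60 in LA and -0.77 in RA, and -1.80 in BFM, and the groups overlapped in none of the 5 tissues. In LV the margin was narrow, with 7.43 as the highest LG BPA and 7.45 as the lowest EG BPA level. BFM alone met the criteria (limma adjusted p = 0.00179), as did lower levels of 1.94% of tested transcripts in LV and 4% in RV, 3.81% in LA and 2.89% in RA, and 11.9% in BFM.

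The estimated differences in Adam12 with BPA in EG were small in every tissue, with intervals that include 0. The EG BPA fetuses 4, 5 and 6 were at 7.49, 7.76 and 7.45 in LV and at 7.18, 7.17 and 7.48 in RV, inside or near the range of the EG controls. They were at 8.09, 8.12 and 8.22 in LA, at 8.71, 8.70 and 8.50 in RA, and at 9.66, 9.30 and 9.59 in BFM. The log2 differences from EG controls were 0.09 in LV (95% interval -0.69 to 0.87) and -0.11 in RV (-0.89 to 0.66), -0.23 in LA (-1.04 to 0.59) and 0.19 in RA (-0.50 to 0.88), and -0.20 in BFM (-0.94 to 0.54). Without fetus 3 the LA difference was 0.23. The intervals reach to about 1 in LV, RV, LA, RA and BFM, so a change of up to about 2-fold is not excluded there. None met the criteria, which were met in the direction of Adam12 by 0.272% of tested transcripts in LV and 0.0831% in RV, 0.291% in LA and 0.107% in RA, and 0.163% in BFM.

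The difference between the LG and the EG effect of BPA was 1.59 in LV (95% interval 0.49 to 2.69) and 1.33 in RV (0.23 to 2.42), 0.32 in LA (-0.84 to 1.47) and 0.36 in RA (-0.61 to 1.34), and 0.71 in BFM (-0.34 to 1.76). LV met the study's criteria (unadjusted p = 0.0088 by limma) and RV did not (unadjusted p = 0.0207 by limma). The LV call was lost in 10 of 12 fits that each left out 1 fetus (1.38 to 1.76) and under median centring, and the RV difference was called without fetus 7 (1.58). The LA difference was -0.14 without fetus 3 and that of BFM 0.29 without fetus 7. The same criteria were met upward by 0.823% of tested transcripts in LV and 0.116% in RV, 0.696% in LA and 0.225% in RA, and 0.302% in BFM. The adjusted p was 0.806 in LV and 1.00 in RV by limma, and because this contrast holds the arrays from which Adam12 was singled out, it is no independent support.

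Since each fetus gave all 4 chambers, the level was also averaged over LV, RV, LA and RA after subtraction of each chamber's mean. On this scale the EG controls were at 0.37, 0.43 and 0.72, the EG BPA fetuses at 0.45, 0.53 and 0.50, the LG controls at -0.81, -0.90 and -1.12, and the LG BPA fetuses at 0.10, -0.11 and -0.16. The LG BPA fetuses lay between the LG controls below and both EG groups above, with no overlap on either side. LG controls were 1.45 below EG controls (difference -1.45, SE 0.23, limma adjusted p = 0.00178), a fall called together with 5.47% of the 6435 transcripts tested in all 4 chambers. LG BPA exceeded LG controls by 0.88 (SE 0.23, unadjusted p = 0.00182 and adjusted p = 0.839 by limma), which is below the fold threshold, and 0.28% of transcripts met the criteria upward. This mean holds the LV and RV arrays from which Adam12 was singled out, so neither its p nor that of the fall in controls is independent support. The LG BPA difference was 1.45 over the ventricles alone and 0.32 over the atria alone (unadjusted p = 0.293 by limma). Against EG controls its difference was -0.56 (95% interval -1.06 to -0.07).

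**Figure D3:**
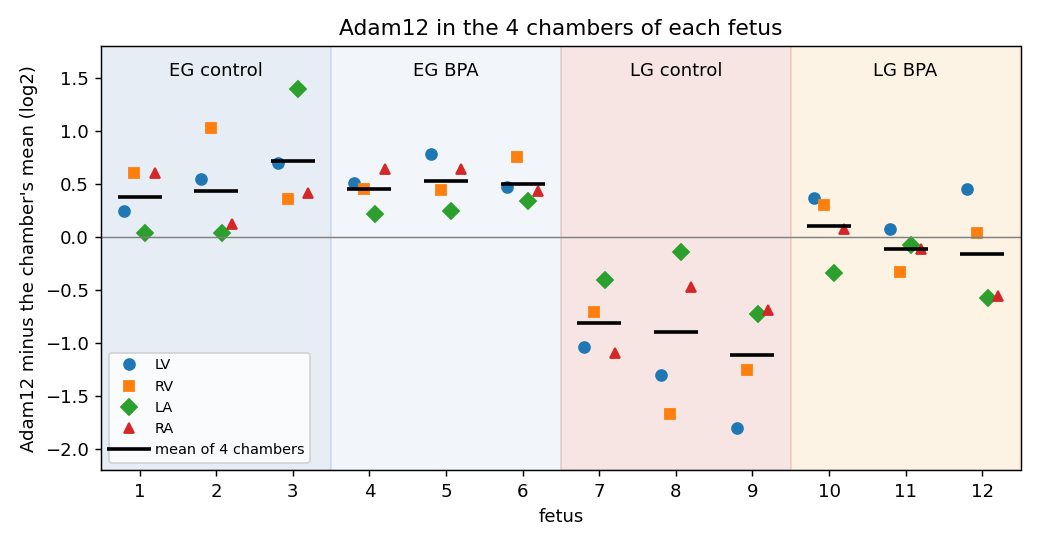
Adam12 in each chamber of each fetus, as the RMA log2 level minus the mean of the chamber's 12 arrays, with the mean of the 4 chambers as a black bar. The bars of the LG BPA fetuses (0.10, -0.11 and -0.16) lie between those of the LG controls and the EG fetuses.

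The tissues were then compared by their differences, over 10 pairs of tissues and both main contrasts, 20 comparisons in all. For the LG effect of BPA, Adam12 had been singled out by its difference in LV and RV, so the larger effect in LV is a description and its p no independent support. The LG effect of BPA was larger in LV than in LA by 1.59 (95% interval 0.62 to 2.56, unadjusted p = 0.00282 and adjusted p = 0.733 by limma), where 0.998% of transcripts were called, and the call was lost without fetus 8, 10 or 12 (1.39 to 1.83 over all fetuses left out). It was larger in LV than in RA by 1.12 (0.31 to 1.94, unadjusted p = 0.00919, adjusted p = 0.951), where 0.941% were called, and with the fetus as a replicate block, in which each fetus was compared with itself, that call was lost (unadjusted p = 0.0304 by limma), as it was in 10 of the 12 fits without 1 fetus (0.87 to 1.46). LV and RV differed by 0.46 (-0.46 to 1.39). The lower level of LG controls was smaller in LA than in BFM by 1.60 (0.57 to 2.62, adjusted p = 0.0504 by limma) and smaller in RA than in BFM by 1.38 (0.49 to 2.26, adjusted p = 0.0507). Such differences were called in 9.61% and 9.3% of transcripts. The call of LA against BFM was lost without fetus 1, 2, 7 or 8 (1.16 to 2.07 over all fetuses left out), and that of RA against BFM without fetus 2, 3 or 8 (1.12 to 1.64). The differences between LG and EG controls in LV and RV were -0.0011 apart (-0.93 to 0.93), and their difference from BFM was 0.63 (-0.30 to 1.57) for LV and 0.64 (-0.33 to 1.61) for RV. Amplification and slide differ between the ventricles and the atria along with the tissue and cannot be told apart from it.

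Marker transcripts of muscle, dividing cells, leukocytes and red cells were read beside Adam12, and some of them differed between these groups while others did not. Myosin-6, the alpha heavy chain that marks atrial muscle and is variable in fetal ventricle, was high on all LA and RA arrays (14.3 to 15.0), which were normalized apart from LV and RV. In LV it was at 5.56 to 7.62 on all EG arrays and on LG BPA fetuses 10 and 12, but at 14.2, 14.4 and 14.2 in the LG controls and at 13.4 in LG BPA fetus 11. All 3 LV LG controls and 1 of the 3 LG BPA fetuses thus stood far above the other LV arrays. Fetus 11 had Adam12 at 7.05, the lowest of the LG BPA fetuses, whose others were at 7.35 and 7.43, and 1.11 above the highest LG control. The part of Myosin-6 content in the Adam12 differences was not tested. In RV Myosin-6 was high in some fetuses of every group. In LG it was at 14.2 and 14.0 in LG control fetuses 8 and 9 and at 12.8 and 13.7 in LG BPA fetuses 10 and 11, and it was low in control fetus 7 (6.47) and BPA fetus 12 (7.63). Among the RV arrays of LG with high Myosin-6, Adam12 was 5.06 and 5.47 in the controls and 7.03 and 6.40 with BPA, and among those with low Myosin-6 it was 6.02 and 6.76. In EG, control fetus 3 and BPA fetuses 4 and 6 had Myosin-6 at 11.9, 12.8 and 11.8 in RV, with Adam12 at 7.08, 7.18 and 7.48. Myosin-6 and KCNA5 were named because the study listed them for a difference with LG BPA in LV, so that direction is no independent evidence. KCNA5, an atrial potassium channel, was 2.27 higher in LV LG controls than in EG controls and differed by -1.49 with LG BPA. BMP10, the third transcript of the cardiac list and an atrial growth factor, was near the lower end of the scale in LV, with means of 1.23 in LG controls and 2.60 with LG BPA, and was not called. Between LG and EG controls in LV it differed by -2.40 (unadjusted p = 0.0169 by limma, not called), opposite in sign to Myosin-6 and KCNA5.

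**Figure D4:**
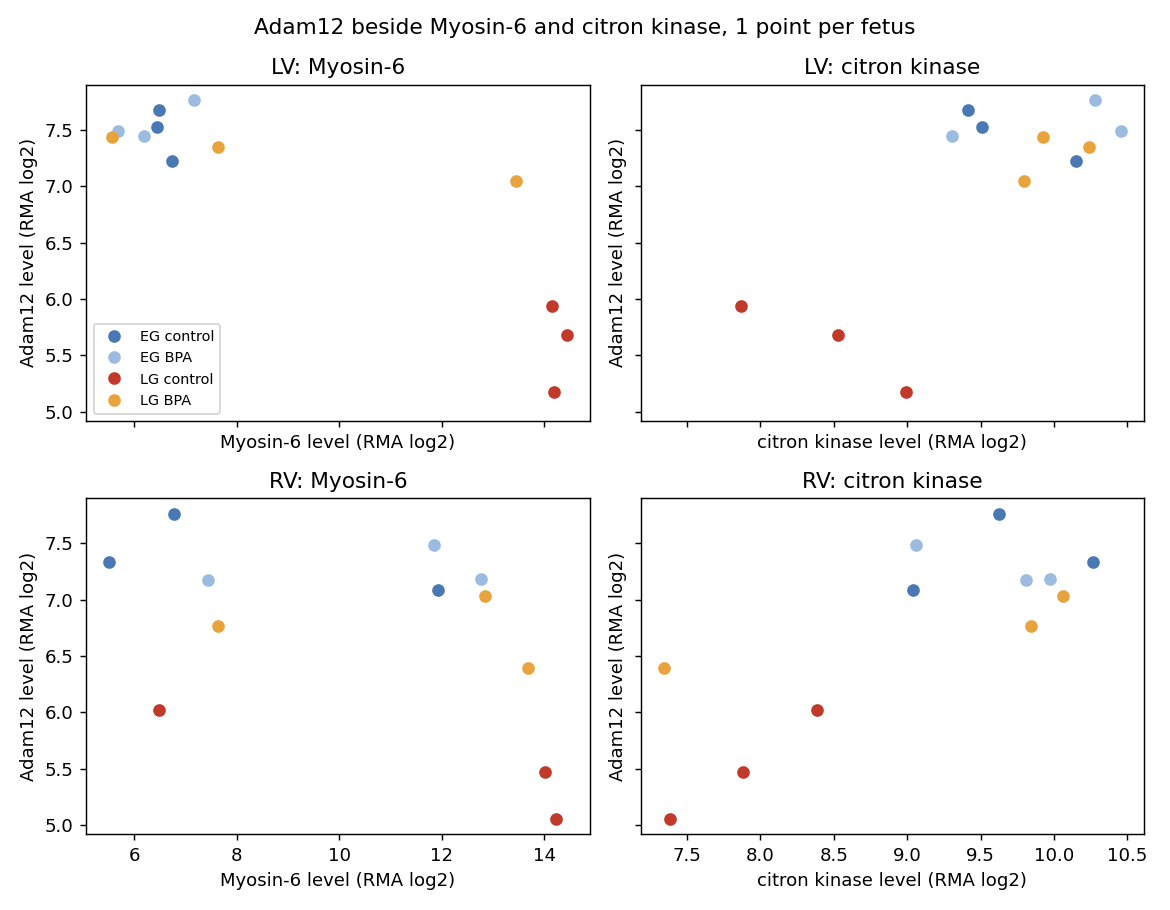
Adam12 level against the level of Myosin-6 and of citron kinase in LV and RV on the RMA log2 scale, with 1 point per fetus and colours for the 4 groups. In LV the LG BPA fetus with Myosin-6 at 13.4 has Adam12 at 7.05, while the 3 LG controls with Myosin-6 at 14.2 to 14.4 lie between 5.18 and 5.94.

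Dividing-cell markers were CDC25C and TTK kinase, both mitotic regulators, centromere-associated protein E, which attaches chromosomes to the spindle, and citron kinase, which acts in cytokinesis. Their mean level was lower in LG than in EG controls in every tissue, from 7.12 to 7.56 down to 5.60 to 6.54 in LV and from 6.87 to 7.25 down to 5.65 to 5.96 in BFM. By the study's criteria 2 of 4 were called lower in LV and 3 of 4 in RV, LA, RA and BFM, where 1.49%, 3.53%, 4.34%, 3.45% and 13.9% of all tested transcripts were. Centromere-associated protein E was called in all of them, by -1.75 in LV and -1.97 in RV, -1.62 in LA and -1.81 in RA, and -1.34 in BFM. The list median was -1.49 in LV, where that of all tested transcripts was -0.08, and -1.86 in RV, -1.67 and -1.80 in the left and right atria and -1.18 in BFM. The study listed all 4 for a difference with LG BPA in LV on these arrays, so their calls there were fixed by the choice and are given as values. In LV the LG BPA fetuses were lower still in CDC25C (-1.74), centromere-associated protein E (-1.65) and TTK kinase (-1.99), while citron kinase was higher (1.52). In RV none of the 4 was called between the LG groups, and citron kinase differed by 1.20 there. The part of cell division in the Adam12 differences was not tested.

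The 6 leukocyte transcripts were taken from the study's table of differences with LG BPA in LA, so their rise there (1.17 to 2.08), beside an Adam12 difference of 0.09, was fixed by the choice. None of the 5 tested in LV and in RV, the 6 in RA and the 1 in BFM was called between the LG groups, where 0.437% of all transcripts were called higher in LV and 0.258% in RV, 0.236% in RA and 0.499% in BFM. Between LG and EG controls limma called none of the leukocyte transcripts by the study's criteria. Their median log2 difference between these controls was 1.07 in LV, against -0.08 for all tested transcripts. Cathepsin S, a lysosomal protease, was 1.61 higher in LG controls in LV (unadjusted p = 0.0154 by limma) and 1.56 higher in RA (unadjusted p = 0.0117 by limma), where 1.46% and 2.02% of transcripts were called higher. In BFM it was 0.94 higher, short of the fold the criteria ask, with an adjusted p of 0.0369 by limma. ALAS2, the first enzyme of heme synthesis in red cells, entered the erythroid list by the same table and was 2.81 higher with LG BPA in LA. Elsewhere ALAS2 differed with LG BPA by 1.15 in LV, 0.96 in RV, 0.89 in RA and 0.42 in BFM, and was not called. KLF1, an erythroid transcription factor, was tested in LV and LA alone and called in neither of these contrasts there. Myosin-11, the smooth muscle heavy chain, was likewise called in neither in LV, RV, LA or RA, and in BFM it did not pass the variation filter.

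From the study's tables, 12 transcripts of the extracellular matrix, proteases and growth factors were taken as neighbours of Adam12 in function. The study listed them for a BPA difference in some chamber on these samples, so their direction there is no independent evidence. A difference of LG from EG controls in that chamber shares control arrays with that choice. In LG against EG controls 1 of 11 tested was called higher in LV, 1 of 6 lower in RV, 1 of 7 lower in LA, 1 of 8 higher in RA and none of 6 in BFM. Of all tested transcripts 1.46% were called higher in LV, 3.53% lower in RV, 4.34% lower in LA and 2.02% higher in RA. No member was called lower in more than 1 tissue. Between LG BPA and LG controls 1 was called higher and 3 lower in LV, 2 higher in RV and 4 higher in LA, and none in RA or BFM. The shares of all tested transcripts were 0.437% higher and 0.403% lower in LV, 0.258% higher in RV and 0.62% higher in LA. The list medians in that contrast were 0.15 in LV, 0.43 in RV and 1.21 in LA, against 0.06, 0.0032 and -0.0038 for all tested transcripts. Cathepsin S, a lysosomal protease of immune cells that is also on the leukocyte list, had a mean change of 1.03 over the 5 tissues, and HTRA3, a secreted serine protease, of 0.92, called in LV (1.33) and RA (1.36). Platelet-derived growth factor C, which acts on fibroblasts, had a mean change of -0.68 and was called in LA (-1.39). EGF-containing fibulin-like matrix protein 1, a matrix glycoprotein, had -0.51 and was called in RV (-2.65), and it rose there with LG BPA (1.55, called). ADAM 21 and ADAM 28, the further ADAM family members on the list, were called in opposite directions in LV with LG BPA, with log2 differences of 1.56 and -1.89. Neither passed the variation filter in RV, so neither was tested there.

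Transcripts were ranked by their Pearson correlation with Adam12 over the 60 arrays after each tissue's mean was subtracted. The 60 points come from 12 fetuses that share slides, groups and gestational age, so the correlations are a description. Of 26148 transcripts, 9 reached r of at least 0.8, the highest being the unnamed ENSMMUT00000019353 (r = 0.87), followed by the unnamed ENSMMUT00000046533 (0.84). Among the 447 with a name, most of them named because the study listed them for a BPA difference, citron kinase stood first (0.76), at rank 24 of all. After it came 4 transcripts of the SNORD113/SNORD114 family of small nucleolar RNAs (0.76, 0.64, 0.59 and 0.58), whose near-identical copies may share signal, cellular retinoic acid-binding protein 1 (0.63), 7SK RNA (0.60), copper-transporting ATPase 2 (0.59), prominin-1 (0.58) and centromere-associated protein E (0.57). Between LG and EG controls ENSMMUT00000019353 differed by -0.78 in LV and -1.27 in RV, -0.60 in LA and -0.68 in RA, and -1.69 in BFM. With LG BPA it differed by 0.31 in LV and 0.48 in RV. Cellular retinoic acid-binding protein 1, a carrier of retinoic acid, differed by -3.68 in LV and -3.15 in RV between LG and EG controls, and by -1.16 in LA, -0.15 in RA and -3.30 in BFM. Between LG BPA and LG controls it differed by 1.35 in LV and 2.24 in RV, 0.43 in LA and -0.0184 in RA, and 0.26 in BFM. When the 4 group means were subtracted as well, so that only differences between fetuses of a group were left, the highest r was 0.63, that of ENSMMUT00000019353 was 0.54 and that of citron kinase 0.23.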

How the data were processed

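RNA of LV, RV, LA, RA and BFM was hybridized by the authors to custom NimbleGen 12-plex arrays built on Ensembl transcripts of Mmul_1, with 12 arrays per tissue. The deposited log2 values were background corrected, quantile normalized within each tissue and summarized by median polish (RMA) by the authors. All 60 columns matched a sample. Precision is set by how few arrays each group has. The preparation of BFM is not given in the sources used here. Names came from the tables of the study, and the lists of symbols and the sequences could not be joined to the transcripts and were not used here.

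In each tissue a model with 4 group means was fitted by limma 3.58.1 (lmFit, contrasts.fit, default eBayes; R 4.3.3) to transcripts whose interquartile range reached 0.5, with Benjamini-Hochberg adjustment over all transcripts tested. A call needed a log2 fold change of 1 in either direction and an unadjusted p no higher than 0.01. Exact tests and tables were made in Python 3.11.15 with numpy 2.4.6, pandas 2.3.3 and matplotlib 3.10.9, and array weights used statmod 1.5.0. The fits were tested on simulated data. Differences between tissues were fitted without and with the fetus as a replicate block. The same fetus number was taken as the same animal, which the sample titles do not state. Deviations from the group means correlated between tissues with a median of 0.02 to 0.21 for the same fetus number. For other fetuses of the group the median was -0.09 to -0.01. The correlation was weakest between LV and BFM, where it passed 0.1 in 1 of 12 fetuses. The chamber means and the replicate block rest on this pairing.

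The transcript, lists and comparisons were chosen with earlier results of these data known. The rule for named genes was Adam12 in every group, the 10 named transcripts with the highest correlation with it and at most 2 without a name, and up to 4 members of a list by their mean change in controls over the 5 tissues. Values of ADAM 21, ADAM 28 and single marker transcripts were chosen after their values were seen. A sign that turned was a reversal if the main difference was larger than its SE.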

Additional observations from a re-analysis of the deposited data

Results flagged for a closer look

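The effect of BPA on Adam12 differed between the windows in LV, where it was larger in LG than in EG by 1.59 on the log2 scale, with EG BPA 0.09 above EG controls and LG BPA 1.68 above LG controls. The LG effect also differed between tissues, being larger in LV than in LA by 1.59 and larger in LV than in RA by 1.12. The lower level of LG than EG controls was weaker in LA than in BFM by 1.60 and weaker in RA than in BFM by 1.38. Each of these 5 differences met the study's criteria by limma without a block, and none had an adjusted p of 0.05 or less. The difference of the windows in LV lost its call in 10 of 12 fits without 1 fetus and under median centring, and that of LV and RA lost it with the fetus as a replicate block (unadjusted p = 0.0304 by limma) and in 10 of 12 fits without 1 fetus. That of LV and LA lost it without fetus 8, 10 or 12, that of LA and BFM without fetus 1, 2, 7 or 8, and that of RA and BFM without fetus 2, 3 or 8. Adam12 was singled out by the study from LG BPA in LV and RV, so the first 3 are no independent support. All 5 were chosen with earlier results of these data known.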

How the results depend on the processing

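Against no filter, other normalizations, array weights, trend and robust settings, the arrays of a contrast alone and each fetus left out, the fall of Adam12 in controls kept its call in LV, RV and BFM, and the LV rise with LG BPA kept its call. With an adjusted p of at most 0.05, the calls in LV (-1.88, 1.68 and 1.59 for the difference of the windows), RV (1.21) and RA (-1.13), and those between tissues (1.59 for LV and LA, 1.12 for LV and RA, 1.60 for LA and BFM, 1.38 for RA and BFM) were lost. With only the arrays of the contrast, RV lost its LG BPA call (1.21) and RA its fall (-1.13). Median centring ended the LV difference of windows (1.55) and that of LV and RA (1.07). The RV difference of windows was called with no filter (1.33) and with array weights (1.47), whose fit did not converge in 1 tissue. The LG BPA effect over the 4 chambers (0.88) and its difference from EG (0.90) were 1.45 and 1.46, both called, in the ventricles alone and 0.32 and 0.34, not called, in the atria alone. With the fetus as a replicate block, the difference of LV and RA was 1.12 and lost its call, and no other call changed.

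Leaving out 1 fetus moved the LV difference of windows between 1.38 and 1.76, called only without fetus 7 or 11. It moved the RV LG BPA effect between 0.98 and 1.47, the RV difference of windows between 1.10 and 1.58 (called without fetus 7), and the RA fall between -1.27 and -0.96 (lost without fetus 1 or 7). For the LG BPA effect, LV minus LA ranged from 1.39 to 1.83 (lost without fetus 8, 10 or 12), LV minus RA from 0.87 to 1.46 (kept only without fetus 7 or 11), LV minus BFM from 0.66 to 1.76 and RV minus BFM from 0.35 to 1.38 (both called without fetus 7). For the control fall, LV minus LA ranged from -1.31 to -0.71 and RV minus LA from -1.57 to -0.55 (both called without fetus 3), LA minus BFM from 1.16 to 2.07 (lost without fetus 1, 2, 7 or 8) and RA minus BFM from 1.12 to 1.64 (lost without fetus 2, 3 or 8). RV minus BFM ranged from -0.040 to 0.99 and changed sign without fetus 7. Over both treatments the LV difference ranged from -1.28 to -0.83 and was lost without fetus 5. The cause of these changes was not tested. Median centring moved the median difference of all transcripts between BFM controls from -0.0068 to 0.10, and Adam12 stayed called there. A filter at an interquartile range of 1 removed Adam12 in LV, RV, LA and RA, so only BFM was refitted. Over all transcripts, calls in LG against EG controls numbered 520 in LV, 286 with only the arrays of the contrast and 743 with no filter, and 804 in RV, 368 with array weights and 1473 without fetus 9. LG BPA calls in LV numbered 148 (98 to 252 over the alternatives, the highest with array weights). Without fetus 11 they reached their highest count in RV (66, range 23 to 149), LA (86, range 69 to 142) and BFM (71, range 44 to 248), and without fetus 10 in RA (41, range 30 to 145).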
